A study of Homo sapiens with 8 samples.

Results

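Integrins are the receptors that tie a cell to the matrix around it, and laminins, nidogens, fibronectin, tenascin-C, vitronectin and osteopontin are proteins of that matrix that they bind. The 44 genes described here are the alpha and beta integrin subunits, the laminin chains, the 2 nidogens and these 4 further ligands. They were taken by symbol alone from the 26364 genes of the count table. Of the 44 members, 34 had enough counts to be tested, beside 14201 genes tested in all.

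RNA was sequenced from LN229, an established human glioblastoma line, in 4 groups of 2 libraries each, lettered a and b. Every library came from a stable, G418-resistant clone that carried survivin fused to eGFP on a pcDNA3.1 plasmid, so no group lacked a transgene. The Surv-GFP clone (D6) held the wild-type protein, which was mainly cytoplasmic in untreated cells. The SurvNESmut-GFP clone (L2) held survivin with the substitutions L96A and L98A in its nuclear export signal, which kept it mainly in the nucleus. Each clone was left untreated or was exposed to 50 µM temozolomide (TMZ) for 48 h. TMZ is a methylating agent used against glioblastoma. It was added from a DMSO stock, and the labels do not state whether untreated cells received DMSO. Each construct was represented by 1 clone, so an effect of the construct and a property of the clone cannot be told apart. The paper describes independent biological replicates, each in technical duplicates, and neither it nor the labels say which of these the letters stand for. P-values and SDs therefore measure only the spread between a and b, which may be technical.

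An integrin is a pair of 1 alpha and 1 beta subunit, and the pairing sets which ligand is bound. The beta1 subunit joins most alpha subunits, alphaV and alpha5 receptors read the RGD motif of fibronectin and vitronectin, alpha3, alpha6 and alpha7 receptors bind laminins, and alpha1, alpha2, alpha10 and alpha11 receptors bind collagens. A laminin is a trimer of an alpha, a beta and a gamma chain, and nidogens link laminins to collagen IV in basement membranes. In gliomas, tenascin-C, fibronectin and laminins are known as parts of the matrix through and along which tumour cells move.

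Counts on genes ranged from 15826923 to 18861603 per library, of which the members took from 1.27% to 1.5%. Levels are given as CPM, a gene's count scaled to its TMM-adjusted library size. Of 10 glioma line markers, VIM (2348 to 3783 CPM), NES and CD44 were abundant, whereas GFAP, SOX9 and NCAN stayed under 1 CPM in all 8 libraries. The other 4 were highest in untreated Surv-GFP. In the order untreated and TMZ of Surv-GFP, then of SurvNESmut-GFP, the group means were 777, 263, 40.6 and 16.8 CPM for S100B, 90.7, 54.4, 34.4 and 19.6 CPM for SOX2, 34.0, 17.3, 6.94 and 6.81 CPM for OLIG2, and 51.8, 11.5, 17.8 and 7.73 CPM for PDGFRA. The sum over all 10 was 6004, 3864, 4723 and 4118 CPM, and its part in the results on the members was not tested. All 8 leukocyte, all 6 endothelial and all 4 muscle markers were under 1 CPM throughout. BIRC5, the survivin gene whose reads cannot be split between the endogenous copy and the transgene, stood at 1133 ± 27.9 and 1984 ± 64.6 CPM in Surv-GFP without and with TMZ, and at 411 ± 5.22 and 258 ± 6.89 CPM in SurvNESmut-GFP (SD, n = 2 each).

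The stretches before the transcription start are shown for ITGA2 and LAMB3, which rose with TMZ in both clones, and for LAMA5 and LAMC1, whose response to TMZ differed between the clones. They are the 250 bases upstream of a RefSeq start in GRCh38.p14, written 5′ to 3′ on the gene's strand, with capitals for the AP-1 motif TGANTCA, the GC box GGGCGG and the TATA box TATAAA read on either strand. ITGA2 lies at chr5:52989102-52989351 on the plus strand, LAMB3 at chr1:209651375-209651624 on the minus strand, LAMA5 at chr20:62367313-62367562 on the minus strand and LAMC1 at chr1:183023170-183023419 on the plus strand.
ITGA2: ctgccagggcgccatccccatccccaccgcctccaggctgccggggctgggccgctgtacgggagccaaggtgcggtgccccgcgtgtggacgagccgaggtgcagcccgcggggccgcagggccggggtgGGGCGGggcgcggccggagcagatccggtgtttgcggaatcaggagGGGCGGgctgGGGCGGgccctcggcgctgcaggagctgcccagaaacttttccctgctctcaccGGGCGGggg
LAMB3: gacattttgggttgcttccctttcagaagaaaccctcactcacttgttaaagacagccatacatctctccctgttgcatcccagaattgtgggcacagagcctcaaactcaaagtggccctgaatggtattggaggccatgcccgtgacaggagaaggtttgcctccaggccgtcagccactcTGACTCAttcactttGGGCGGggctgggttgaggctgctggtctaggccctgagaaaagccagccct
LAMA5: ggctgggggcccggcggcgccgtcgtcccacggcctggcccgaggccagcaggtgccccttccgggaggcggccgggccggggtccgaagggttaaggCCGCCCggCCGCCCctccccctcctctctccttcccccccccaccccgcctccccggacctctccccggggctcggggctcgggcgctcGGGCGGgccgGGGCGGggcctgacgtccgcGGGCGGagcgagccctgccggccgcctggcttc
LAMC1: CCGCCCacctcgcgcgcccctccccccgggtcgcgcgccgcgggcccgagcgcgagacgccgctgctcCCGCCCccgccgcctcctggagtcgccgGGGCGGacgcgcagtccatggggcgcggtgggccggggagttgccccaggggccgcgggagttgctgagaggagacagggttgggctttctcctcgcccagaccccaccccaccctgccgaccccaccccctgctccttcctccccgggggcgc
The LAMB3 stretch, 1 of 3 listed starts of that gene, was chosen because its window held an AP-1 motif. That motif began 67 bases before the start, and the windows of the other LAMB3 starts held none. ITGA2 had 4 GC boxes, LAMA5 had 5 and LAMC1 had 3. RefSeq windows of 300 bases, from 250 before to 50 after a start, were at hand for 32 of the 44 members (39 windows), and 35116 such windows were searched in all. The AP-1 motif stood in 3 of the 39 member windows (ITGA5, LAMA3 and LAMB3) and in 7.71% of all windows. The GC box stood in 23 of the 39 (18 members) and in 45% of all windows, and TATAAA in 2 of the 39 and 11.5% of all windows. Among motifs searched but not marked above, that of NF-kappaB stood in 6 of the 39 and in 5.91% of all windows. The p53 half-site stood in 0 of the 39 and in 6.63% of all windows. These are matches of letters and do not show that a factor was bound.

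In the Surv-GFP clone, 8 members rose with TMZ and 11 fell among the 34 tested, by edgeR's quasi-likelihood test at a Benjamini-Hochberg adjusted p under 0.05. Of all genes tested, 30.1% rose and 28.9% fell in that comparison. In the SurvNESmut-GFP clone 11 members rose and 11 fell, beside 18.6% and 19.1% of all genes. The tested members had a median level of 92.7 CPM, against 30.6 CPM over all tested genes, and 22 of the 34 were above the latter. The part of this higher level in these and the later counts of calls was not tested. Over the tested members the log2 fold change had a median size of 0.43 in Surv-GFP, against 0.32 over all genes, and of 0.27 in the other clone, against 0.20. The signed medians of the members were -0.07 and -0.02. Bulk RNA cannot tell fewer expressing cells from less RNA per cell. The counts include LAMC3 among those that rose in each clone, although this member passed the filter on low counts (0.556 CPM in at least 2 libraries) only through libraries with TMZ, so that its direction was fixed by the filter. In both clones TMZ raised ITGA2, ITGA3, LAMB2, LAMB3 and TNC and lowered ITGA4, ITGA9, ITGAV, ITGB3, ITGB5, LAMA5 and NID1. The subunits ITGB8 and ITGA6 passed the test in opposite directions. A further 4 members passed it in Surv-GFP and not in SurvNESmut-GFP, 7 in SurvNESmut-GFP and not in Surv-GFP, and 8 in neither clone.

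The difference between the TMZ effects was tested as an interaction, SurvNESmut-GFP minus Surv-GFP. It was positive for 12 members and negative for 6, where 16.6% and 20.2% of all genes passed in these directions. Which direction was the more common over all genes changed with the scaling and with the filter on low counts, as described in the last section. The median size of this difference was 0.40 on the log2 scale over the members and 0.28 over all genes. The sizes of both TMZ effects, gene by gene, are shown in the plot of log2 fold changes in each clone.

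**Figure D1:**
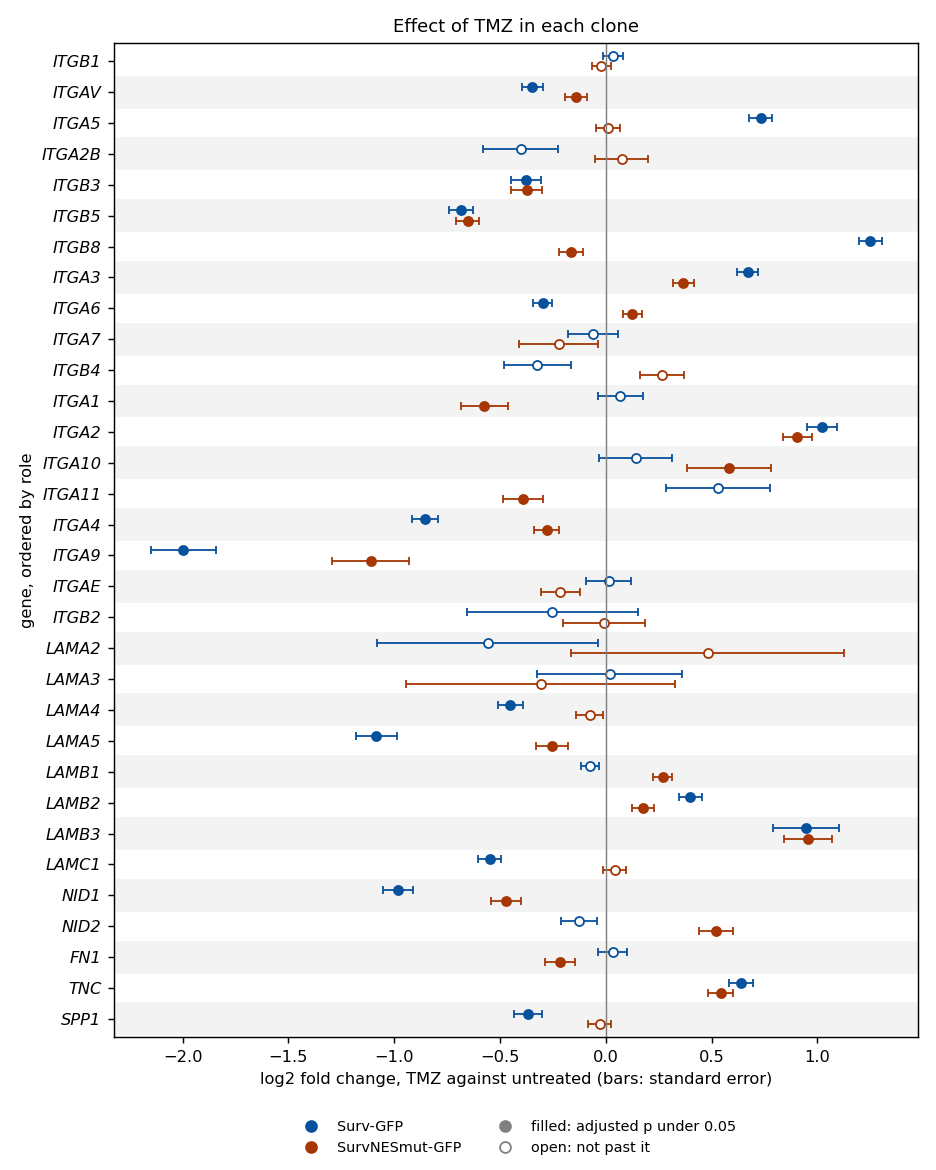
Log2 fold change of 32 tested members, TMZ against untreated, in Surv-GFP (blue) and SurvNESmut-GFP (brown), with the standard error as bars and filled points for an adjusted p under 0.05. LAMC3 is left out because of its low counts. ITGB8 stands at 1.25 in Surv-GFP and -0.16 in SurvNESmut-GFP, while the points of ITGA2, ITGB5, LAMB3 and TNC lie close together.

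The clones also differed from each other. Without TMZ, 16 members were higher and 11 lower in SurvNESmut-GFP than in Surv-GFP, beside 34.7% and 29.4% of all genes. With TMZ, 19 were higher and 9 lower, beside 34.5% and 34.7%. LAMA3 is among the lower ones in both counts, but it passed the filter on low counts only through the Surv-GFP libraries, which fixed its direction. The median size of the difference was 0.83 on the log2 scale over the members and 0.36 over all genes without TMZ, and 0.72 against 0.42 with TMZ. These comparisons share libraries with the TMZ comparisons above. Over all genes, the more common direction without TMZ changed under some alternatives. Among them were library size alone as the scaling and a filter of 1 CPM in 2 libraries.

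**Figure D2:**
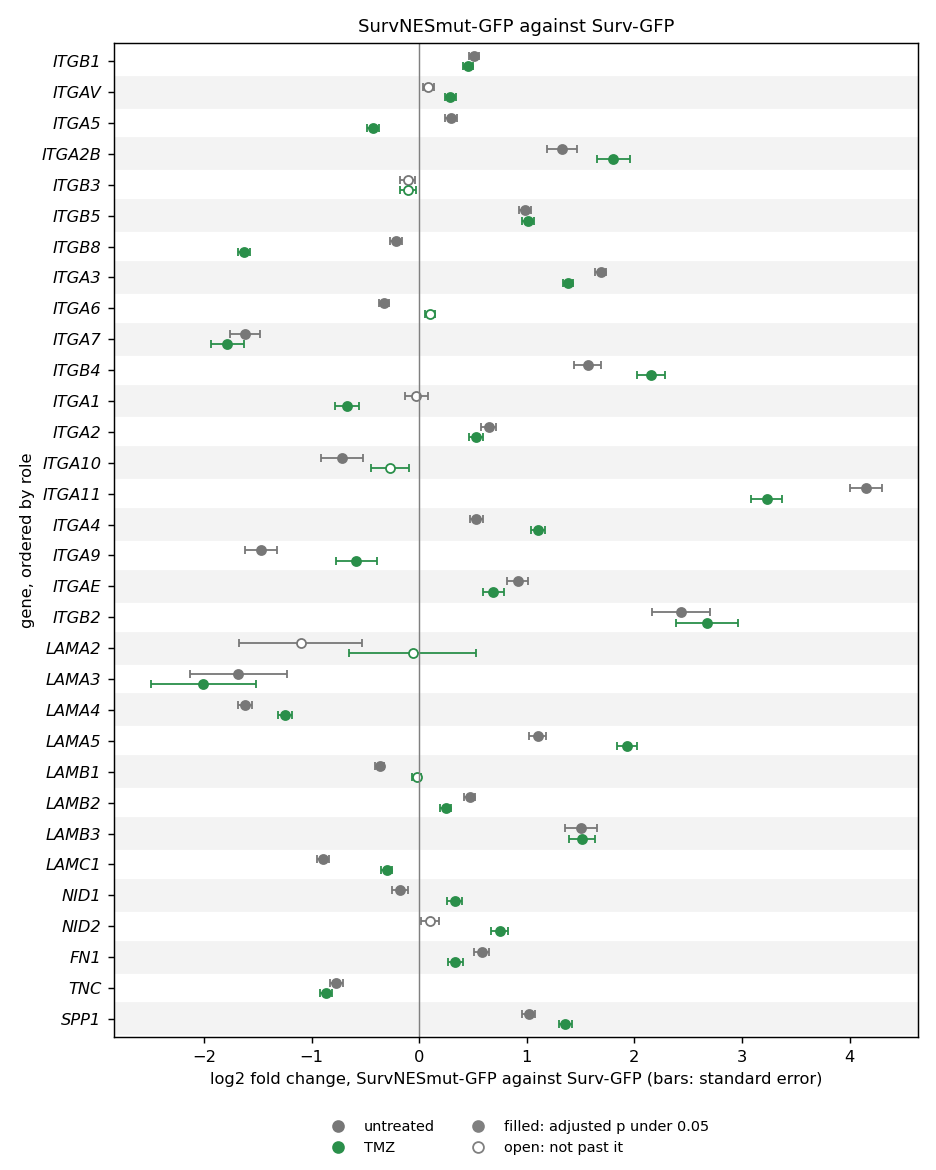
Log2 fold change of 32 tested members, SurvNESmut-GFP against Surv-GFP, untreated (grey) and with TMZ (green), with the standard error as bars and filled points for an adjusted p under 0.05. LAMC3 is left out because of its low counts. ITGA11 lies farthest to the right at 4.15 and 3.23, and LAMA3 and ITGA7 lie at -1.62 or below in both comparisons.

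ITGB1 encodes beta1, the common partner of most alpha subunits. Its level was 743 and 762 CPM in untreated Surv-GFP, 773 and 766 CPM with TMZ, 1066 and 1076 CPM in untreated SurvNESmut-GFP, and 1014 and 1096 CPM with TMZ. All 4 SurvNESmut-GFP libraries were above all 4 Surv-GFP libraries, by 0.51 ± 0.05 on the log2 scale without TMZ (SE, n = 2 per group; edgeR, adjusted p = 6.88e-08) and by 0.46 ± 0.05 with it (edgeR, adjusted p = 2.18e-07). The log2 fold changes with TMZ were 0.03 ± 0.05 in Surv-GFP and -0.02 ± 0.05 in the other clone, and neither passed the test.

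Among the RGD-binding subunits, ITGB8 gave the largest difference between the TMZ effects. Integrin alphaVbeta8 binds latent TGF-beta and takes part in its activation. ITGB8 stood at 259.9 and 289 CPM in untreated Surv-GFP and at 671 and 635 CPM with TMZ, while SurvNESmut-GFP had 238 and 236 CPM untreated and 215 and 209 CPM with TMZ. The Surv-GFP libraries exposed to TMZ were above the other 6. The log2 fold change was 1.25 ± 0.05 in Surv-GFP, a 2.38-fold rise (edgeR, adjusted p = 1.03e-11), and -0.16 ± 0.06 in SurvNESmut-GFP (edgeR, adjusted p = 0.0291). The fall in SurvNESmut-GFP did not pass the test without its untreated library a (adjusted p = 0.119), its untreated library b (0.0983) or its TMZ library b (0.0666). The difference between the effects was -1.41 ± 0.08 (edgeR, adjusted p = 1.52e-09). Between the clones ITGB8 was 3.09-fold lower in SurvNESmut-GFP with TMZ, and -0.21 ± 0.06 on the log2 scale without it, a call that was lost without Surv-GFP library b (log2 fold change -0.13, adjusted p = 0.0952).

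ITGA5, the alpha subunit of the classical fibronectin receptor, rose 1.66-fold with TMZ in Surv-GFP and had a log2 fold change of 0.01 ± 0.06 in SurvNESmut-GFP. Its difference between the effects was -0.72 ± 0.08 (edgeR, adjusted p = 2.51e-06). The order of the clones turned with it, since ITGA5 was 1.23-fold higher in untreated SurvNESmut-GFP than in untreated Surv-GFP and 1.35-fold lower with TMZ. ITGA5 and ITGB8 were the RGD-binding subunits that rose in Surv-GFP.

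ITGB5 and ITGB3, both beta partners of alphaV that bind vitronectin, fell in both clones. ITGB5 went from 185 and 176 to 113 and 112 CPM in Surv-GFP and from 368 and 345 to 217 and 236 CPM in SurvNESmut-GFP. The groups did not overlap, and the falls on the log2 scale were -0.68 ± 0.06 and -0.65 ± 0.05 (edgeR, adjusted p = 2.84e-08 and 1.02e-07). ITGB5 was 1.97-fold higher in untreated SurvNESmut-GFP than in untreated Surv-GFP and 2.01-fold higher with TMZ. ITGB3 read 467 and 457 CPM in untreated Surv-GFP, 339.5 and 372 CPM with TMZ, 444 and 413 CPM in untreated SurvNESmut-GFP, and 299 and 362 CPM with TMZ. Untreated libraries of each clone were above those with TMZ, at log2 fold changes of -0.38 ± 0.07 and -0.37 ± 0.07 (edgeR, adjusted p = 0.000267 and 0.000653). Without SurvNESmut-GFP TMZ library a the second value was -0.24. In the GENCODE release 29 annotation 51.6% of the ITGB3 exon bases are shared with a readthrough gene on the same strand, so reads there may have been split or left out by the counting. The interaction did not pass the test for either, at 0.03 with an approximate 95% interval from -0.12 to 0.18 for ITGB5 and from -0.20 to 0.20 for ITGB3.

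ITGAV, the alpha subunit that beta3, beta5 and beta8 share, fell in Surv-GFP (log2 fold change -0.35 ± 0.05, edgeR adjusted p = 2.19e-05) and less in SurvNESmut-GFP (-0.14 ± 0.05, adjusted p = 0.0399). The second call was lost on leaving out any of the 8 libraries other than SurvNESmut-GFP TMZ b (adjusted p from 0.0550 to 0.281), with -0.08 without SurvNESmut-GFP TMZ library a, and with library size alone as the scaling (-0.10, adjusted p = 0.119). The interaction of 0.21 ± 0.07 (adjusted p = 0.0345) was lost without either untreated Surv-GFP library, Surv-GFP TMZ library a, SurvNESmut-GFP untreated library a or SurvNESmut-GFP TMZ library b (0.14 to 0.21, adjusted p from 0.0821 to 0.148). ITGA2B, whose product pairs with beta3 on platelets, was low at 7.48, 6.29, 4.38 and 6.08 CPM in the Surv-GFP libraries, untreated first, and at 17.9, 16.7, 16.5 and 20.04 CPM in the SurvNESmut-GFP libraries. The clones did not overlap (log2 difference 1.33 ± 0.14 untreated, 1.81 ± 0.15 with TMZ; edgeR, adjusted p = 4.54e-07 and 1.90e-08), and no effect of TMZ passed the test. ITGA8 had 0 counts in every library, which allows up to 0.160 to 0.189 CPM per library, and ITGB6 reached at most 3 counts.

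**Figure D3:**
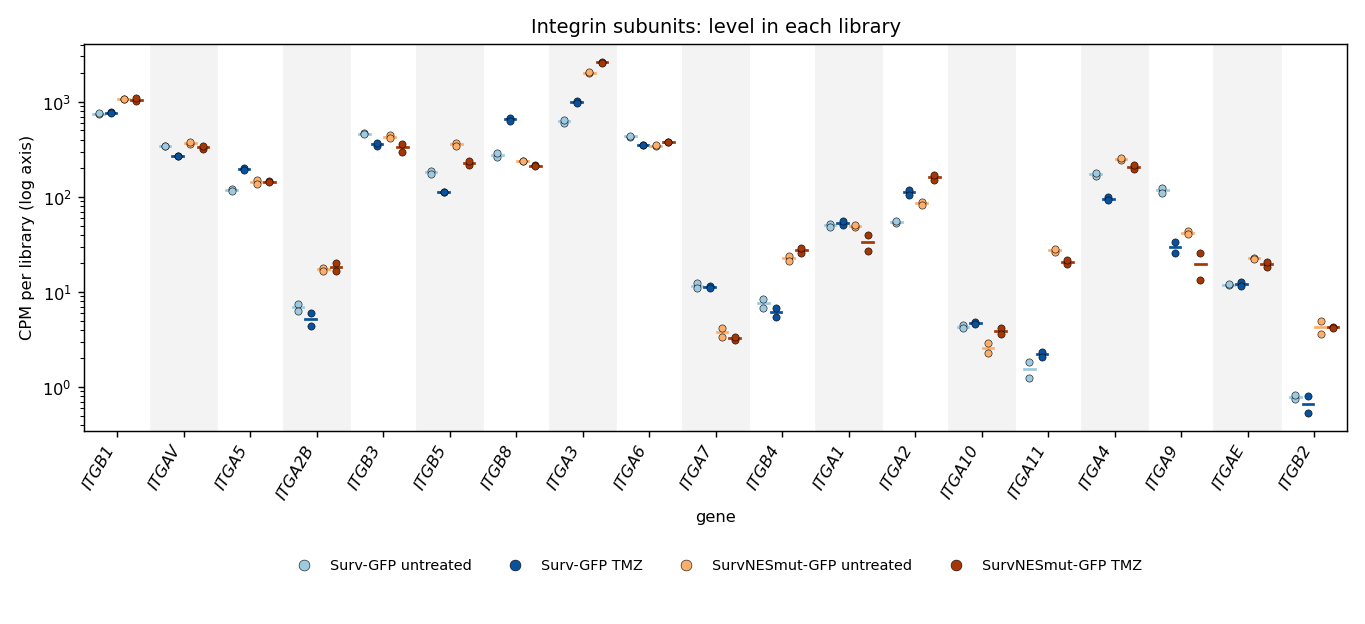
CPM of the 19 tested integrin subunits in each library on a log axis, with a dash at each group mean, for Surv-GFP untreated (light blue) and with TMZ (dark blue) and SurvNESmut-GFP untreated (light orange) and with TMZ (brown). ITGB8 is high in Surv-GFP with TMZ, and ITGA3 climbs from 605 CPM in an untreated Surv-GFP library to 2648 CPM in a SurvNESmut-GFP library with TMZ.

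Of the laminin-binding subunits, ITGA3 had the highest level per kilobase of exon of all integrin subunits in SurvNESmut-GFP. The alpha3beta1 integrin is a receptor for laminin-332 and laminin-511. ITGA3 measured 605 and 647 CPM in untreated Surv-GFP, 1029 and 963 CPM with TMZ, 1989.9 and 2039 CPM in untreated SurvNESmut-GFP, and 2648 and 2547 CPM with TMZ. No groups overlapped, and ITGA3 was higher with TMZ in each clone and higher in SurvNESmut-GFP at both states. TMZ gave log2 fold changes of 0.67 ± 0.05 (Surv-GFP) and 0.37 ± 0.05 (SurvNESmut-GFP) (edgeR, adjusted p = 5.38e-09 and 1.53e-05), with an interaction of -0.30 ± 0.07 (adjusted p = 0.00229). The clones differed 3.22-fold without and 2.61-fold with TMZ.

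ITGA6, whose product pairs with beta1 or beta4, fell in Surv-GFP (log2 fold change -0.30 ± 0.05, edgeR adjusted p = 2.85e-05) and rose slightly in SurvNESmut-GFP (0.12 ± 0.05, adjusted p = 0.0405). The rise was lost on leaving out any of the 8 libraries other than SurvNESmut-GFP TMZ b (log2 fold change 0.11 to 0.14). It was also lost with a replicate block (adjusted p = 0.0618) and by DESeq2 (0.0711). The same held with no filter on low counts (0.0620) and with only the 4 libraries compared (0.0998). The interaction of 0.42 ± 0.06 passed the test (adjusted p = 8.35e-05). ITGA7, a laminin receptor subunit best known from muscle, stood at 12.3, 11.0, 11.4 and 10.9 CPM in the Surv-GFP libraries and at 4.18, 3.39, 3.10 and 3.40 CPM in those of SurvNESmut-GFP, untreated first. It was lower in SurvNESmut-GFP, by 3.07-fold without and 3.44-fold with TMZ (edgeR, adjusted p = 4.59e-08 and 2.57e-08). Its TMZ effects of -0.06 ± 0.12 and -0.22 ± 0.19 did not pass the test.

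ITGB4 encodes the beta4 subunit of hemidesmosomes, the anchoring contacts of epithelia. Untreated Surv-GFP had 8.51 and 6.79 CPM of it and Surv-GFP with TMZ had 6.74 and 5.45 CPM, whereas SurvNESmut-GFP had 24.0 and 21.3 CPM untreated and 25.7 and 28.9 CPM with TMZ. The clones were far apart, 2.96-fold without and 4.46-fold with TMZ (edgeR, adjusted p = 1.36e-08 and 3.12e-10). The TMZ effects were -0.32 ± 0.16 and 0.27 ± 0.10, neither past the threshold, and their difference of 0.59 ± 0.19 was (adjusted p = 0.0216). That difference did not pass without Surv-GFP untreated library a (adjusted p = 0.167), Surv-GFP TMZ library b (0.0926) or SurvNESmut-GFP untreated library b (0.0845). Of the 6 epithelial markers KRT8 and KRT18 were detected and EPCAM, CDH1, KRT5 and KRT19 stayed under 1 CPM. The summed level of the 6 was 156 and 309 CPM in Surv-GFP without and with TMZ and 144 and 221 CPM in SurvNESmut-GFP, and its part in these results was not tested.

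The collagen-binding subunits went different ways. ITGA2 encodes the alpha subunit of a collagen receptor of platelets, epithelia and fibroblasts. It rose from 53.5 and 56.1 to 118 and 105 CPM in Surv-GFP and from 88.4 and 83.0 to 151 and 171 CPM in SurvNESmut-GFP. Libraries with TMZ exceeded all untreated ones, with folds of 2.03 and 1.87 (log2 1.02 ± 0.07 and 0.91 ± 0.07; edgeR, adjusted p = 3.20e-09 and 2.75e-08). The interaction was -0.12 ± 0.10 (adjusted p = 0.377), with an approximate 95% interval from -0.31 to 0.07. ITGA2 was 1.56-fold higher in SurvNESmut-GFP without TMZ.

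ITGA11, known as a collagen receptor subunit of fibroblasts, differed most between the clones. Its levels were 1.25 and 1.82 CPM in untreated Surv-GFP, 2.35 and 2.07 CPM with TMZ, 26.6 and 28.0 CPM in untreated SurvNESmut-GFP, and 19.8 and 21.9 CPM with TMZ. It was 17.8-fold higher in SurvNESmut-GFP untreated and 9.38-fold higher with TMZ (log2 4.15 ± 0.15 and 3.23 ± 0.15; edgeR, adjusted p = 6.54e-13 and 1.15e-11). TMZ lowered it in SurvNESmut-GFP (log2 fold change -0.39 ± 0.10, adjusted p = 0.00399), and the value in Surv-GFP was 0.53 ± 0.25 (adjusted p = 0.0748). The difference of -0.92 ± 0.26 (adjusted p = 0.0117) did not pass without Surv-GFP untreated library a (-0.68, adjusted p = 0.0964) or Surv-GFP TMZ library a (-0.82, adjusted p = 0.0729).

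ITGA1, a receptor subunit for collagen IV, fell in SurvNESmut-GFP (log2 fold change -0.57 ± 0.11, edgeR adjusted p = 0.000790) and stood at 0.07 ± 0.11 in Surv-GFP. The fall was -0.32 without SurvNESmut-GFP TMZ library a, and the interaction of -0.64 ± 0.15 was -0.39 without it, both still past the test. ITGA10, a collagen receptor subunit of cartilage, rose in SurvNESmut-GFP (0.58 ± 0.20, adjusted p = 0.0293). That call was lost without SurvNESmut-GFP untreated library b (log2 fold change 0.41) or TMZ library a (0.46). It was also lost by DESeq2 (adjusted p = 0.161) and with only the 4 libraries compared (0.0533). Untreated, ITGA10 was lower in SurvNESmut-GFP (log2 difference -0.72 ± 0.19, adjusted p = 0.00365), which was lost without SurvNESmut-GFP untreated library b (adjusted p = 0.0546).

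ITGA4 and ITGA9 encode closely related subunits that bind fibronectin, VCAM-1, tenascin-C or osteopontin. Both fell in each clone, and ITGA9 gave the largest fall of all members. ITGA9 went from 124 and 110.3 to 25.5 and 33.3 CPM in Surv-GFP and from 44.0 and 40.4 to 13.4 and 26.0 CPM in SurvNESmut-GFP. No library with TMZ reached the untreated level of its clone, and the SurvNESmut-GFP libraries with TMZ were themselves far apart. The fall was 3.99-fold in Surv-GFP (log2 -2.00 ± 0.15; edgeR, adjusted p = 1.09e-08) and 2.16-fold in SurvNESmut-GFP (-1.11 ± 0.18, adjusted p = 0.000140), where it was -0.70 without TMZ library a and did not pass with a robust prior (adjusted p = 0.0611). The interaction was 0.89 ± 0.24 (edgeR, adjusted p = 0.00880). It did not pass without Surv-GFP TMZ library a (0.70), SurvNESmut-GFP untreated library b (0.82) or SurvNESmut-GFP TMZ library b (0.35). Nor did the interaction pass by DESeq2 (adjusted p = 0.174) or with a robust prior (0.203). Untreated, ITGA9 was 2.77-fold lower in SurvNESmut-GFP. With TMZ the log2 difference was -0.58 ± 0.19 (edgeR, adjusted p = 0.0120). It did not pass without Surv-GFP TMZ library b (-0.38) or SurvNESmut-GFP TMZ library a (-0.21), and was -1.16 without SurvNESmut-GFP TMZ library b. This difference also did not pass by DESeq2 (adjusted p = 0.158) or with a robust prior (0.200).

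ITGA4 fell from 166 and 178 to 98.7 and 91.7 CPM in Surv-GFP and from 244 and 253 to 194 and 215 CPM in SurvNESmut-GFP. The 4 groups did not overlap. The log2 fold changes were -0.85 ± 0.06 and -0.28 ± 0.06 (edgeR, adjusted p = 4.56e-09 and 0.00121), and their difference of 0.57 ± 0.08 passed the test (adjusted p = 6.01e-05). In contrast to ITGA9, ITGA4 was higher in SurvNESmut-GFP, 1.44-fold without and 2.15-fold with TMZ.

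Of the 7 leukocyte integrin subunits, ITGAE and ITGB2 were tested, and ITGAL, ITGAM, ITGAX, ITGAD and ITGB7 reached at most 10 counts in a library. ITGAE, the alpha subunit that binds E-cadherin, had 11.8, 12.1, 12.6 and 11.5 CPM in the Surv-GFP libraries and 22.9, 22.3, 18.4 and 20.6 CPM in those of SurvNESmut-GFP, untreated first. ITGB2, the common beta subunit of leukocyte integrins, had 0.759, 0.828, 0.535 and 0.804 CPM in Surv-GFP and 4.99, 3.61, 4.33 and 4.22 CPM in SurvNESmut-GFP in the same order. Both were higher in SurvNESmut-GFP than in every Surv-GFP library, ITGAE by 0.92 ± 0.10 untreated and 0.69 ± 0.10 with TMZ (edgeR, adjusted p = 3.48e-07 and 1.12e-05), and ITGB2 by 2.43 ± 0.27 and 2.67 ± 0.29 on the log2 scale (adjusted p = 6.95e-07 and 3.69e-07). No TMZ effect on either gene passed the test. The 8 leukocyte markers summed to at most 0.759 CPM in any library.

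The laminin alpha chains set the receptor a laminin binds. LAMA4, the alpha chain of the laminins of vessel walls, was the most abundant of them. Its level was 784 and 743 CPM in untreated Surv-GFP, 523 and 595 CPM with TMZ, 251 and 245 CPM in untreated SurvNESmut-GFP, and 224 and 247 CPM with TMZ. All Surv-GFP libraries were above all SurvNESmut-GFP libraries, and TMZ lowered LAMA4 in Surv-GFP (log2 fold change -0.45 ± 0.06, edgeR adjusted p = 8.46e-06), with -0.08 ± 0.06 in SurvNESmut-GFP and an interaction of 0.37 ± 0.09 (adjusted p = 0.00326). LAMA4 was 3.08-fold lower in SurvNESmut-GFP without and 2.37-fold lower with TMZ.

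LAMA5, the alpha chain of laminin-511 and laminin-521, showed the opposite order of the clones. Surv-GFP had 27.0 and 24.6 CPM untreated and 11.2 and 13.1 CPM with TMZ, while SurvNESmut-GFP had 53.5 and 57.3 CPM untreated and 44.5 and 48.5 CPM with TMZ. The groups were all apart from each other. LAMA5 fell 2.12-fold in Surv-GFP (log2 -1.09 ± 0.10; edgeR, adjusted p = 7.64e-08) and less in SurvNESmut-GFP (-0.25 ± 0.07, adjusted p = 0.0128), a call lost without SurvNESmut-GFP untreated library b (adjusted p = 0.132) or TMZ library a (0.0817) and by DESeq2 (0.0577). The interaction was 0.83 ± 0.12 (adjusted p = 6.83e-05). The higher level in SurvNESmut-GFP was 2.15-fold untreated and 3.82-fold with TMZ.

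LAMA3, the alpha chain of the epithelial laminin-332, was close to the detection limit, at 1.03, 0.938, 0.963 and 1.03 CPM in the Surv-GFP libraries and 0.163, 0.444, 0.234 and 0.252 CPM in those of SurvNESmut-GFP. As a description, since the Surv-GFP libraries alone carried it past the filter, the log2 difference was -1.68 ± 0.45 untreated, which was -1.13 without SurvNESmut-GFP untreated library a and -2.54 without library b, and -2.01 ± 0.49 with TMZ. LAMA2, the alpha chain of muscle laminin, lay between 0.189 and 0.813 CPM, with no call in any comparison, and LAMA1 reached at most 2 counts.

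**Figure D4:**
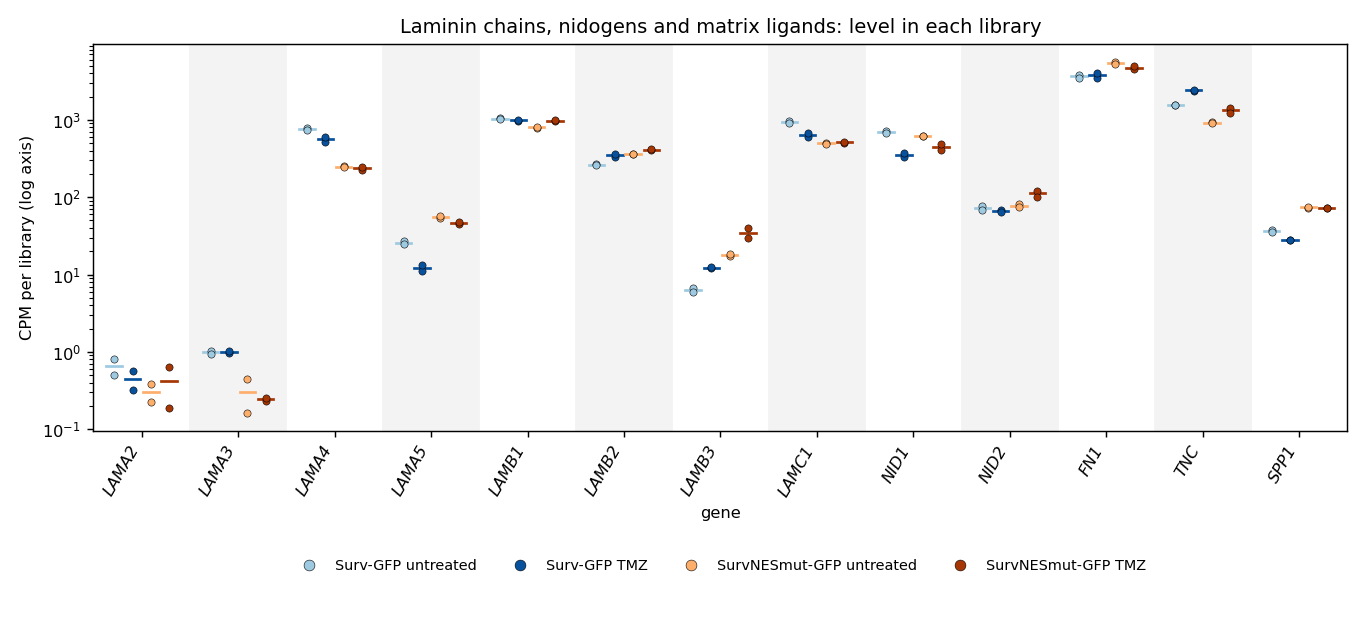
CPM of 8 tested laminin chains, the nidogens and the matrix ligands in each library on a log axis, with a dash at each group mean and the colours of the integrin plot. LAMA4 and LAMC1 are higher in Surv-GFP, LAMA5, LAMB3 and SPP1 are higher in SurvNESmut-GFP, and NID1 falls with TMZ in both clones.

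The laminin beta chains beta1, beta2 and beta3 were all detected. LAMB1, part of laminin-111, laminin-411 and laminin-511, stood at 1040.1 and 1038 CPM in untreated Surv-GFP, 975 and 999.6 CPM with TMZ, 795 and 817 CPM in untreated SurvNESmut-GFP, and 957 and 984 CPM with TMZ. The untreated SurvNESmut-GFP libraries were the lowest. TMZ raised LAMB1 in SurvNESmut-GFP (log2 fold change 0.27 ± 0.04, edgeR adjusted p = 0.000123) and gave -0.07 ± 0.04 in Surv-GFP, and the interaction was 0.34 ± 0.06 (adjusted p = 0.000344). The clones differed by -0.37 ± 0.04 without TMZ (adjusted p = 1.37e-06) and by -0.02 ± 0.04 with it.

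LAMB3, the beta chain of laminin-332, rose from 6.72 and 5.96 to 12.0 and 12.5 CPM in Surv-GFP and from 17.6 and 18.4 to 39.8 and 29.9 CPM in SurvNESmut-GFP. The order of the 4 groups was free of overlap. The folds were 1.93 and 1.94 (log2 0.95 ± 0.16 and 0.96 ± 0.11; edgeR, adjusted p = 6.53e-05 and 5.72e-06), and the interaction was 0.01 ± 0.21 (adjusted p = 0.986). LAMB3 was 2.84-fold higher in SurvNESmut-GFP untreated and 2.85-fold higher with TMZ. The summed epithelial markers given beside ITGB4 were higher with TMZ in both clones, and their part in this result was not tested either.

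LAMB2, the beta chain of laminin-421 and laminin-521, rose in Surv-GFP (log2 fold change 0.40 ± 0.05, edgeR adjusted p = 7.97e-06) and in SurvNESmut-GFP (0.18 ± 0.05, adjusted p = 0.0157). The second call was lost without SurvNESmut-GFP untreated library a (adjusted p = 0.0728) or b (0.0957). The interaction of -0.22 ± 0.08 (adjusted p = 0.0291) was lost without Surv-GFP untreated library b (0.114), Surv-GFP TMZ library b (-0.11, 0.303), SurvNESmut-GFP untreated library a (0.0805) or b (0.0677). LAMB2 was higher in SurvNESmut-GFP by 0.47 ± 0.05 untreated and 0.25 ± 0.05 with TMZ, and the latter was 0.13 without Surv-GFP TMZ library a (adjusted p = 0.0689). LAMB4 reached at most 4 counts.

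Among the gamma chains, LAMC1 is shared by most laminins. It read 952 and 904 CPM in untreated Surv-GFP, 601 and 667 CPM with TMZ, 507 and 493 CPM in untreated SurvNESmut-GFP, and 505 and 524 CPM with TMZ. The untreated Surv-GFP libraries were the highest. TMZ lowered LAMC1 in Surv-GFP (log2 fold change -0.55 ± 0.05; edgeR, adjusted p = 1.75e-07), and the log2 fold change was 0.04 ± 0.05 in SurvNESmut-GFP. The interaction was 0.59 ± 0.08 (adjusted p = 1.49e-05). LAMC1 was 1.86-fold lower in SurvNESmut-GFP without TMZ and 1.23-fold lower with it.

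LAMC3, another gamma chain, was scarce. It had 0 and 2 counts in untreated Surv-GFP, 13 and 4 with TMZ, 0 and 0 in untreated SurvNESmut-GFP, and 11 and 6 with TMZ. The 17 counts with TMZ against 2 without in Surv-GFP gave a ratio of 8.61, with a 95% interval from 2.04 to 76.8 that covers counting error only. In SurvNESmut-GFP the 17 counts against 0 were at least 6.26-fold higher, with a floor of 3 counts over the untreated group. These counts are a description and not a test, for the reason given above.

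NID1, the more abundant nidogen, fell in both clones. It went from 719 and 675 to 331 and 376 CPM in Surv-GFP and from 621 and 611 to 407 and 482 CPM in SurvNESmut-GFP. Each library with TMZ was below each untreated one. The fall was 1.97-fold in Surv-GFP (log2 -0.98 ± 0.07; edgeR, adjusted p = 5.74e-09) and 1.39-fold in SurvNESmut-GFP (-0.47 ± 0.07, adjusted p = 6.38e-05), and the interaction was 0.51 ± 0.10 (adjusted p = 0.000828). Between the clones NID1 differed by -0.18 ± 0.07 untreated (adjusted p = 0.0354), which was lost without Surv-GFP untreated library a (-0.13, adjusted p = 0.230) or SurvNESmut-GFP untreated library a (0.105) or b (0.157), and by 0.33 ± 0.07 with TMZ (adjusted p = 0.000620), which was 0.21 without Surv-GFP TMZ library a and 0.17 without SurvNESmut-GFP TMZ library b. NID2 moved otherwise. It rose in SurvNESmut-GFP (0.52 ± 0.08, adjusted p = 8.24e-05), stood at -0.13 ± 0.08 in Surv-GFP, and had an interaction of 0.65 ± 0.12 (adjusted p = 0.000362). In the annotation 21.6% of the NID2 exon bases lie opposite exons of RTRAF, and no source used here states whether strand was used in the counting.

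Fibronectin (FN1) had the highest count of all members. Its level was 3834 and 3477 CPM in untreated Surv-GFP, 3423 and 4054 CPM with TMZ, 5659.6 and 5291 CPM in untreated SurvNESmut-GFP, and 4477 and 4944 CPM with TMZ. The SurvNESmut-GFP libraries were above those of Surv-GFP, by 0.58 ± 0.07 on the log2 scale untreated (edgeR, adjusted p = 1.63e-06) and 0.33 ± 0.07 with TMZ (adjusted p = 0.000442), the latter 0.18 without Surv-GFP TMZ library a. TMZ gave 0.03 ± 0.07 in Surv-GFP and -0.22 ± 0.07 in SurvNESmut-GFP (adjusted p = 0.0209). The fall was lost without SurvNESmut-GFP untreated library a (adjusted p = 0.174) or TMZ library a (0.0884), by DESeq2 (0.148) and with a robust prior (0.115), and the interaction did not pass the test (-0.25 ± 0.10, adjusted p = 0.0570).

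Tenascin-C (TNC), an anti-adhesive matrix protein abundant in glioma, rose in both clones, by 0.64 ± 0.06 in Surv-GFP and 0.54 ± 0.06 in SurvNESmut-GFP on the log2 scale (edgeR, adjusted p = 8.71e-08 and 2.03e-06). It was 1.71-fold lower in untreated SurvNESmut-GFP than in untreated Surv-GFP and 1.82-fold lower with TMZ. Osteopontin (SPP1), a secreted RGD ligand, had 37.6 and 35.5 CPM in untreated Surv-GFP, 28.3 and 28.3 CPM with TMZ, 72.6 and 75.5 CPM in untreated SurvNESmut-GFP, and 72.0 and 73.2 CPM with TMZ. SPP1 fell in Surv-GFP (-0.37 ± 0.07, adjusted p = 0.000136), had -0.03 ± 0.05 in SurvNESmut-GFP and an interaction of 0.34 ± 0.09 (adjusted p = 0.00516). It was 2.02-fold higher in SurvNESmut-GFP untreated and 2.56-fold higher with TMZ. Vitronectin (VTN) had 1 to 3 counts per library.

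Levels of different genes were compared as CPM per kilobase of exon. On this scale FN1 was first in untreated Surv-GFP, at 402 ± 27.7 CPM per kb (SD, n = 2), ahead of ITGB1 (191 ± 3.39), TNC (173 ± 0.391) and LAMB1 (167 ± 0.297). The gap between TNC and LAMB1 was small but larger than their SDs. In SurvNESmut-GFP with TMZ the order began with ITGA3 at 531 ± 14.6 and FN1 at 518 ± 36.3 CPM per kb, which did not differ beyond their spread, and ITGB1 followed at 268 ± 14.6. The highest alpha subunit was ITGA3 in every group, from 128 ± 6.0 CPM per kb in untreated Surv-GFP upward. ITGB8 ranked among the lower RGD-binding subunits in untreated Surv-GFP (29.8 ± 2.27 CPM per kb, against 47.8 ± 0.477 for ITGAV and 105 ± 1.68 for ITGB3). With TMZ it rose to 70.8 ± 2.76 there, above ITGAV at 37.6 ± 0.0868 and near ITGB3 at 80.9 ± 5.20. Among the laminin chains of untreated Surv-GFP, LAMB1, LAMC1 (118 ± 4.33) and LAMA4 (97.4 ± 3.74) led, the 3 chains of laminin-411. In untreated SurvNESmut-GFP LAMA4 was at 31.7 ± 0.494, below LAMC1 at 63.4 ± 1.25 and LAMB2 at 63.4 ± 0.349 CPM per kb. LAMB3 and LAMA3 stayed at or under 7.76 CPM per kb in every group mean.

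Genes that work with the members were described from lists of symbols. Of 37 tested adhesion adaptors and kinases, 6 rose and 12 fell in Surv-GFP, where 30.1% and 28.9% of all genes did, and 8 rose and 7 fell in SurvNESmut-GFP, where 18.6% and 19.1% did. The same shares stand beside the lists that follow. Of the 2 genes ranked first by p in either direction, ZYX, a focal adhesion protein, rose in Surv-GFP by 1.02 ± 0.06 on the log2 scale, and TNS3, a tensin, fell in Surv-GFP (-0.84 ± 0.05) and in SurvNESmut-GFP (-0.27 ± 0.05) (edgeR, adjusted p = 5.54e-10, 1.43e-10 and 0.000150). In SurvNESmut-GFP TLN2, a talin that links integrin tails to actin, rose by 0.97 ± 0.07 and ACTN4, an actin crosslinker, fell by 0.51 ± 0.05 (edgeR, adjusted p = 1.59e-08 and 4.21e-07). Of 24 other matrix proteins, 4 rose and 10 fell in Surv-GFP, and 6 rose and 10 fell in SurvNESmut-GFP. A gene among the 4 that rose in Surv-GFP had 0 counts in each untreated library there and 1 and 3 with TMZ. Thrombospondin 2 (THBS2), a matricellular protein, rose by 0.87 ± 0.05 in Surv-GFP and fell by 0.35 ± 0.05 in SurvNESmut-GFP, with a difference between the TMZ effects of -1.22 ± 0.07 (edgeR, adjusted p = 2.18e-10, 2.49e-05 and 1.86e-09). The basement membrane proteoglycan perlecan (HSPG2) had -0.86 ± 0.07 in Surv-GFP and 0.26 ± 0.07 in SurvNESmut-GFP, with an interaction of 1.12 ± 0.09 (adjusted p = 1.49e-07), and agrin (AGRN) rose in both, by 0.32 ± 0.05 and 0.48 ± 0.05. Of 19 other receptors and integrin partners, 7 rose and 7 fell in each clone. SLC3A2, the CD98 heavy chain that associates with beta integrins and carries amino acid transporters, rose by 1.89 ± 0.05 in Surv-GFP and had 0.03 ± 0.05 in SurvNESmut-GFP. Its group means were 212 and 786 CPM in Surv-GFP without and with TMZ, and 709 and 722 CPM in SurvNESmut-GFP. Dystroglycan (DAG1), a laminin receptor that is no integrin, fell in both clones, at -0.94 ± 0.05 and -0.23 ± 0.05 (edgeR, adjusted p = 7.33e-11 and 0.00127). When an untreated SurvNESmut-GFP library was left out, several of these counts in that clone were smaller. Fewer of all tested genes passed there as well.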

How the data were processed

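The authors deposited whole-number read counts per gene symbol, unnormalised, for 8 libraries, and their notes name STAR 2.5.0b, Cufflinks 2.2.1 and edgeR. No source used here gives the genome build, the counting program or the strandedness. The deposited tables of the authors' own comparisons (log2 fold changes, average log2 CPM, F scores, p-values and FDR) were not used. 2 rows without a gene were left out, of which reads on no feature came to 11.2% to 14.3% of the counts.

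Columns were matched to samples by the code in their names. Tests were run with edgeR 4.0.16 in R 4.3.3 (TMM, filterByExpr by group, quasi-likelihood F test, 1 model of 4 group means over all 8 libraries, Benjamini-Hochberg adjustment over 14201 genes, threshold 0.05). Code was tested on simulated data. The common coefficient of variation that edgeR estimated between libraries of a group was 4.09%. For 0 counts, up to 3 were allowed. Intervals on counts cover counting error only. Exon lengths came from GENCODE release 29 and upstream sequences from RefSeq (GRCh38.p14), and no coordinate of the count file was inferred. Values in every library are given for members past the threshold with a log2 fold change of at least 1 in any comparison, at most 20, and for the most abundant member of each role. From each partner list the 2 genes with the smallest p per direction and clone could be named. Members and lists were chosen with earlier results of these data known. Alternatives were DESeq2 1.42.0 and its size factors, library size alone, other filters and quasi-likelihood settings, the 4 libraries compared alone, a replicate block, each library left out, and, chosen after seeing the data, the longest transcript as length. The values of 1 tested member, which stays in the counts of members, are not reported here.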

Additional observations from a re-analysis of the deposited data

Results flagged for a closer look

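The TMZ effect differed between the clones for 18 of the 34 tested members, by edgeR's test of the interaction (SurvNESmut-GFP minus Surv-GFP, log2 scale). Over all genes tested the difference was positive for 16.6% and negative for 20.2%. That order turned with library size alone as the scaling and with a filter of 1 CPM in 2 libraries. The difference was negative for ITGB8 (-1.41), ITGA11 (-0.92), ITGA5 (-0.72), ITGA1 (-0.64), ITGA3 (-0.30) and LAMB2 (-0.22). It was positive for the subunits ITGA9 (0.89), ITGB4 (0.59), ITGA4 (0.57), ITGA6 (0.42) and ITGAV (0.21), for the laminin chains LAMA5 (0.83), LAMC1 (0.59), LAMA4 (0.37) and LAMB1 (0.34), for the nidogens NID2 (0.65) and NID1 (0.51), and for SPP1 (0.34). For ITGA4, ITGA9, ITGAV, LAMA4, LAMA5, LAMC1, NID1 and SPP1 the fall in Surv-GFP was the larger in size. Leaving out 1 library ended the call for ITGA9 (0.35 without SurvNESmut-GFP TMZ library b, also lost without Surv-GFP TMZ a or SurvNESmut-GFP untreated b), ITGA11 (-0.68 without Surv-GFP untreated a, also lost without Surv-GFP TMZ a) and ITGB4 (0.41 without Surv-GFP untreated a, also lost without Surv-GFP TMZ b or SurvNESmut-GFP untreated b). It also ended it for LAMB2 (-0.11 without Surv-GFP TMZ b, also lost without Surv-GFP untreated b or either untreated SurvNESmut-GFP library) and ITGAV (0.14 without SurvNESmut-GFP TMZ b, also lost without either untreated Surv-GFP library, Surv-GFP TMZ a or SurvNESmut-GFP untreated a). ITGA1 stood at -0.39 without SurvNESmut-GFP TMZ a, and did not pass with a robust prior (adjusted p = 0.0509). ITGA9 also did not pass by DESeq2 (adjusted p = 0.174) or with a robust prior (0.203).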

How the results depend on the processing

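The counts of members that rose or fell stayed within 1.5 times their reported value in each of the 5 comparisons and under every alternative run. Of 114 calls on members, 93 passed the threshold under every alternative that tested the gene, 21 lost it under at least 1, and 0 changed direction. A gene that an alternative left out, as a stricter filter did with LAMC3, was not counted as lost there. Other scalings moved the median log2 fold change of all genes by at most 0.06. The more common direction over all genes did change in some comparisons. With library size alone the interaction was positive for 2909 genes and negative for 2385, against 2355 and 2871 in the main run. Untreated, 4364 genes were then higher and 4753 lower in SurvNESmut-GFP, against 4926 and 4180. With TMZ in Surv-GFP, 4059 rose and 4293 fell, against 4271 and 4100. That last order also turned with DESeq2 size factors (4036 rose, 4325 fell) and with no filter on low counts (4044 and 4360). A filter of 1 CPM in 2 libraries turned it too (3819 and 4463). The same filter turned the interaction (2815 positive, 2493 negative) and the untreated order of the clones (4413 higher, 4497 lower). With library size alone ITGB8 and ITGAV in SurvNESmut-GFP and the LAMB2 interaction did not pass (adjusted p = 0.0860, 0.119 and 0.0888). The differences b minus a correlated at -0.0671 to 0.0832 between groups, so no large effect shared by a letter was seen. With 2 libraries a group this cannot decide whether the letters mark paired libraries. With the replicate block, 8 members rose and 11 fell in Surv-GFP, and 10 rose and 11 fell in SurvNESmut-GFP. For the 17 members highest per exon length, ranks moved by at most 2 places with the longest transcript and by at most 3 without a length. Low counts limited the precision for LAMA2, LAMA3 and LAMC3.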
